A study of Homo sapiens with 22 samples.

Results

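BCAT1, BCAT2, BCKDHA, BCKDHB, DBT and BCKDK encode the enzymes of the first steps of branched-chain amino acid breakdown and the kinase that restrains them. They are 6 of the 48162 genes in the RNA-seq count table of Kasumi-1 cells in which FIP1L1 was knocked down. The genes were found by symbol through their Ensembl IDs. BCAT1 was selected on its lower RNA level in these same libraries and the other 5 were listed with it as its pathway partners. The values of the 6 genes are therefore given as a description, without a test. All 6 were in the table, and 5 of 6 passed the filter on low counts that left 15834 genes for testing. BCKDHA did not pass it.

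Kasumi-1 is an established line from a human acute myeloid leukaemia, of myeloid progenitor type, with the RUNX1-RUNX1T1 gene fusion. The cells were grown in RPMI with foetal bovine serum, transduced with a lentivirus carrying an shRNA and selected with puromycin, so the control cells carry a virus and were selected too. The 3 groups were shControl, shFIP1L1-1 and shFIP1L1-2, called control, shRNA 1 and shRNA 2 here, with 4 RNA-seq libraries each from total RNA. A further 10 samples of the series were libraries of RNA 3' ends and were not used here. All libraries come from 1 cell line, and the labels call the replicates biological without saying whether they came from separate transductions. The p-values below therefore measure only the spread between these samples. The shRNA 1 and shRNA 2 comparisons share the same 4 control libraries.

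Leucine, isoleucine and valine enter breakdown by transfer of their amino group to 2-oxoglutarate, which gives glutamate and a branched-chain keto acid. BCAT1 is the cytosolic aminotransferase and BCAT2 the mitochondrial one. The reaction is reversible, and BCAT1 has been studied in myeloid leukaemia for its effect on 2-oxoglutarate and on the supply of branched-chain amino acids. The keto acids are then decarboxylated in mitochondria by the branched-chain keto acid dehydrogenase complex. BCKDHA and BCKDHB are the subunits of its decarboxylase, DBT is its acyltransferase core and DLD its dihydrolipoamide dehydrogenase. BCKDK phosphorylates BCKDHA and so inhibits the complex, and the phosphatase PPM1K reverses this. FIP1L1 belongs to the protein complex known as CPSF, which recognises the poly(A) signal of a pre-mRNA and so directs its 3' end cleavage and tailing.

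The last 30 bases of 1 annotated coding transcript of each gene are shown because the knocked-down factor acts at such ends. The sequences are from GENCODE 29 on GRCh38, written 5′ to 3′ on the transcript's strand, with the hexamer AATAAA or, where that is lacking, ATTAAA in capitals.
BCAT1, ENST00000261192, chr12:24810022-24810051, minus strand: tgaaacaAATAAAttgagttggaagattca
BCAT2, ENST00000316273, chr19:48795066-48795095, minus strand: tgcaattttgaAATAAAatgccaaagaaca
BCKDHA, ENST00000269980, chr19:41424976-41425005, plus strand: aactgcatctctgcgcctggctctctacca
BCKDHB, ENST00000320393, chr6:80346241-80346270, plus strand: tagtattcAATAAAgtaaaatcaaattgtc
DBT, ENST00000370132, chr1:100186919-100186948, minus strand: tatagAATAAAcagttttcatataatagtc
BCKDK, ENST00000394951, chr16:31112538-31112567, plus strand: ctgttATTAAAgttcacattttgaatgccc

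The ends of BCAT1, BCAT2, BCKDHB and DBT held AATAAA, that of BCKDK held ATTAAA alone, and that of BCKDHA held neither. From the end of the hexamer to the end of the transcript there were 17 bases in BCAT1, 13 in BCAT2, 16 in BCKDHB, 19 in DBT and 19 in BCKDK. Searched the same way, on the transcript strand only, 53.0% of 12509 tested coding genes had AATAAA in their last 30 bases, 13.1% had ATTAAA without AATAAA, and 33.9% had neither. These are annotated ends and say nothing of which ends Kasumi-1 cells used.

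FIP1L1 itself was measured first. Its level was 42.2, 38.9, 44.1 and 40.2 CPM in the control libraries, 14.1, 14.7, 15.1 and 17.6 CPM with shRNA 1, and 20.2, 20.2, 19.1 and 18.7 CPM with shRNA 2. CPM, the field's usual unit for depth-scaled counts, is here relative to the library total after trimmed-mean scaling. FIP1L1 fell with both shRNAs, with log2 changes of -1.43 (SE 0.10, edgeR adjusted p = 1.92e-11) for shRNA 1 and -1.08 (SE 0.10, edgeR adjusted p = 3.01e-09) for shRNA 2. Its level with shRNA 2 exceeded that with shRNA 1 (log2 difference 0.35, edgeR adjusted p = 0.00415).

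Library totals ran from 12236937 to 20388437 counts. Over genes, libraries of 1 group correlated at 0.968 or more and libraries of different groups at 0.954 or less. The shRNA 1 replicates differed more among themselves than those of the other groups. The chi-square of their counts per degree of freedom ran from 4.14 (replicates 3 and 4) to 33.4 (replicates 1 and 4), beside 3.77 to 7.92 in control and 4.09 to 6.93 with shRNA 2. Results that this touches are given also with shRNA 1 replicates 1 and 2, or 3 and 4, left out, an alternative chosen after seeing the data. RUNX1T1, a mark of the fusion, stood at 168 to 195 CPM in control, 65.8 to 81.5 with shRNA 1 and 138 to 149 with shRNA 2. The summed level of 6 myeloid progenitor markers (CD34, KIT, MPO, CD33, SPI1 and RUNX1T1) ran from 17400 to 19600 CPM in control, 7770 to 10100 with shRNA 1 and 10500 to 13000 with shRNA 2. Most of that sum was MPO, at 15400 to 17300, 6060 to 8530 and 8360 to 10900 CPM. The other markers had patterns of their own: CD34 was at 220 to 298, 43.7 to 55.2 and 166 to 189 CPM, KIT at 1370 to 1510, 1070 to 1360 and 1400 to 1490, CD33 at 61.8 to 80.3, 54.4 to 68.1 and 177 to 190, and SPI1 at 143 to 153, 161 to 273 and 160 to 197. Summed T cell markers reached at most 2.74 CPM, and the erythroid gene HBB was at 0 in every library. Of the B cell and of the fibroblast and epithelial lists, MS4A1 and COL3A1 were at 0 in every library, while PAX5 reached 85.5 and EPCAM 150 CPM. In bulk RNA, fewer cells of a type and less RNA per cell cannot be told apart. The part of these marker levels in the results below was not tested.

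The cytosolic aminotransferase BCAT1 (ENSG00000060982, GRCh38 chromosome 12, 24810022 to 24949459, minus strand) was lower in every knockdown library than in every control library. Its level was 149, 152, 150 and 144 CPM in control replicates 1 to 4. With shRNA 1 it was 60.9, 45.3, 36.8 and 33.8 CPM, and with shRNA 2 it was 18.5, 18.0, 21.6 and 19.6 CPM. No library of 1 group overlapped another group, the shRNA 2 libraries were the lowest, and the shRNA 1 libraries were the most spread. The means were 149 ± 3.33 (SD, n = 4), 44.2 ± 12.1 (SD, n = 4) and 19.5 ± 1.6 CPM (SD, n = 4). BCAT1 thus stood at 29.7% of control with shRNA 1 and at 13.1% with shRNA 2.

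The BCAT1 log2 change was -1.75 (SE 0.13) with shRNA 1 and -2.93 (SE 0.14) with shRNA 2, from the edgeR fit of all 12 libraries. From the lowest log2 change upwards, BCAT1 ranked 384 of 15834 tested genes with shRNA 1 and 83 with shRNA 2. The level with shRNA 2 was 44.0% of that with shRNA 1, a log2 difference of -1.19 (SE 0.14). FIP1L1 RNA was higher with shRNA 2 than with shRNA 1, so the order of the shRNAs was not the same for the targeted gene and for BCAT1. Without shRNA 1 replicate 1, where BCAT1 was highest of its group, the log2 change with shRNA 1 was -1.94 and the difference between the shRNAs -0.99. Without shRNA 1 replicates 1 and 2 these were -2.08 and -0.86, and without replicates 3 and 4 they were -1.49 and -1.44. The exons of BCAT1 share 82 bases with the antisense gene ENSG00000256482, which reached at most 0.0561 CPM, and 168 bases with ENSG00000255921, which had no count. A further 209 bases are shared with ENSG00000278969 on the opposite strand, which is not in the count table.

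BCAT2, the mitochondrial aminotransferase (ENSG00000105552, chromosome 19, 48795062 to 48811029, minus strand), had levels that overlapped between all 3 groups. It was at 74.1, 67.3, 76.7 and 68.3 CPM in control, 66.3, 70.0, 63.4 and 63.7 CPM with shRNA 1, and 70.5, 65.0, 69.9 and 72.6 CPM with shRNA 2. The means were 71.6 ± 4.55, 65.8 ± 3.09 and 69.5 ± 3.21 CPM (SD, n = 4 each). Its log2 change was -0.12 (SE 0.07) with shRNA 1 and -0.04 (SE 0.07) with shRNA 2. Of the 4 shRNA 1 libraries, 3 lay below the lowest control library and 1 within the control range.

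BCKDHB, the beta subunit of the decarboxylase (ENSG00000083123, chromosome 6, 80106647 to 80346270, plus strand), was lower with shRNA 2 than in both other groups. It was at 25.6, 25.4, 28.6 and 27.2 CPM in control, 26.3, 22.7, 27.1 and 23.3 CPM with shRNA 1, and 22.4, 20.6, 19.5 and 20.7 CPM with shRNA 2. The highest shRNA 2 library lay below the lowest library of control and of shRNA 1, while control and shRNA 1 overlapped. Its log2 change was -0.11 (SE 0.10) with shRNA 1 and -0.36 (SE 0.10) with shRNA 2, which left 77.9% of the control level.

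BCKDHA, the alpha subunit that BCKDK phosphorylates (ENSG00000248098, chromosome 19, 41397460 to 41425005, plus strand), was near 0 in this table. It had 4, 6, 15 and 0 counts in the control libraries, 21, 22, 0 and 1 with shRNA 1, and 4, 4, 1 and 6 with shRNA 2. All 3 groups overlapped and no change is given for it. Of its exon bases in GENCODE 29, 1660 (63.8%) also belong to the protein-coding gene ENSG00000255730 on the same strand, which had 0 counts in every library. No source used here says how reads over the shared exons were counted, and their part in the low BCKDHA counts was not tested. The counts of BCKDHA are thus uncertain as a measure of its RNA.

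DBT, the acyltransferase core (ENSG00000137992, chromosome 1, 100186919 to 100249834, minus strand), was higher with shRNA 1 and overlapped control with shRNA 2. It was at 23.1, 26.1, 27.5 and 32.7 CPM in control, 55.1, 50.0, 45.4 and 35.1 CPM with shRNA 1, and 27.8, 27.7, 29.8 and 31.7 CPM with shRNA 2. Every shRNA 1 library lay above every library of the other groups, but shRNA 1 replicate 4 and control replicate 4 came close to each other. The mean with shRNA 1 was 170% of control, a log2 change of 0.76 (SE 0.12), and that with shRNA 2 was 107%, a log2 change of 0.09 (SE 0.12). With shRNA 2 DBT stood at 63.0% of its shRNA 1 level, a log2 difference of -0.67 (SE 0.12). Without shRNA 1 replicates 1 and 2, where DBT was highest, the log2 change with shRNA 1 was 0.55 and the difference between the shRNAs -0.46.

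The kinase BCKDK (ENSG00000103507, chromosome 16, 31106107 to 31112791, plus strand) was lower with both shRNAs. It was at 34.4, 31.1, 34.5 and 31.6 CPM in control, 12.9, 11.5, 14.1 and 13.7 CPM with shRNA 1, and 16.2, 16.0, 18.2 and 13.8 CPM with shRNA 2. Every knockdown library lay below every control library, and the libraries of both shRNAs overlapped each other. The mean left with shRNA 1 was 39.7% of control (log2 change -1.33, SE 0.11) and with shRNA 2 it was 48.9% (log2 change -1.03, SE 0.11). With shRNA 2 BCKDK stood at 123% of its shRNA 1 level, a log2 difference of 0.30 (SE 0.11).

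**Figure D1:**
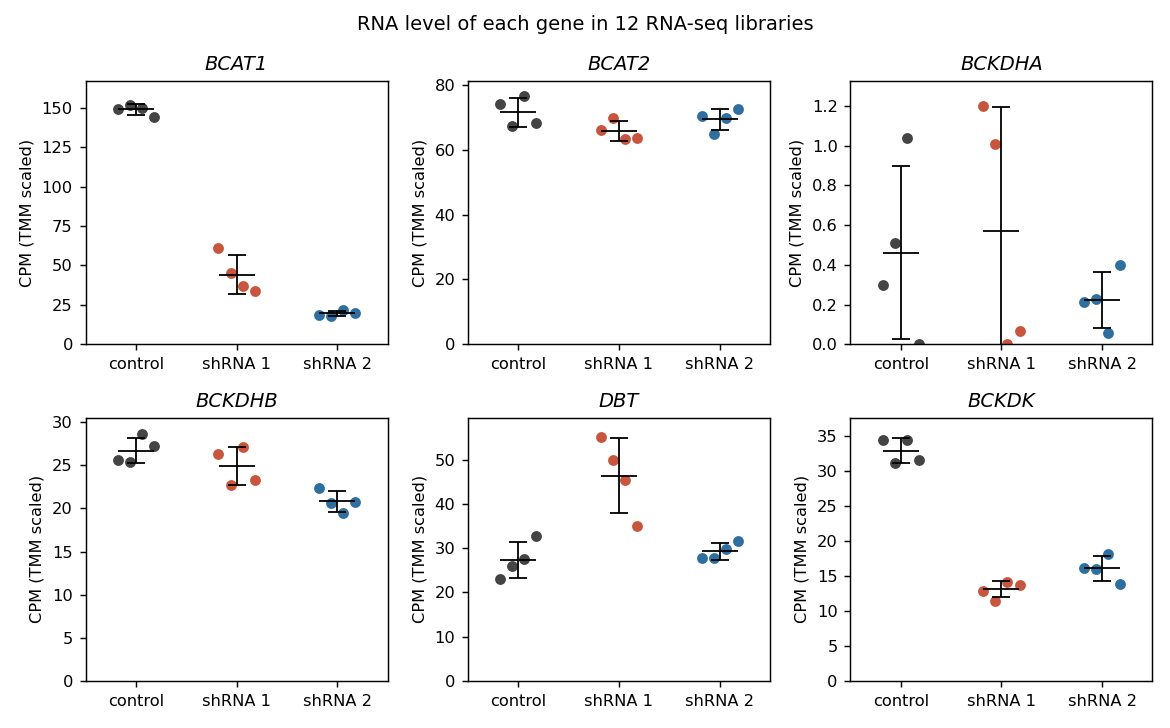
RNA level of the 6 genes in the 12 RNA-seq libraries, in CPM after trimmed-mean scaling (vertical axes, each from 0); points are libraries, horizontal bars group means and whiskers 1 SD over 4 libraries. BCAT1 and BCKDK lie below control in all 8 knockdown libraries, DBT lies above it in the 4 shRNA 1 libraries, and BCKDHA is near 0 throughout, its lower whisker with shRNA 1 being cut off at 0.

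Among the 5 tested genes, 1 had every shRNA 1 library above and 2 had every shRNA 1 library below every control library. A separation of this kind in either direction was seen in 48.3% of all tested genes. With shRNA 2, 0 lay above and 3 below control, and 50.2% of all tested genes were separated. Between the shRNAs, 3 had every shRNA 2 library below every shRNA 1 library, and 52.7% of all tested genes were separated. Since the genes were chosen with these values known, nothing is read from the counts.

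Levels can be set side by side between genes only per length, here as CPM per kilobase of exon in GENCODE 29, an annotation that may differ from the one the authors counted on. In control the order was BCAT2 (15.7 ± 1.0, SD, n = 4), BCAT1 (12.6 ± 0.283), BCKDK (8.49 ± 0.462), BCKDHB (6.56 ± 0.364), DBT (2.42 ± 0.355) and BCKDHA (0.178 ± 0.168), and no neighbours in this order overlapped. With shRNA 1, BCAT2 (14.5 ± 0.679) and BCKDHB (6.11 ± 0.537) led. DBT (4.11 ± 0.753), BCAT1 (3.75 ± 1.03) and BCKDK (3.37 ± 0.29) followed and overlapped one another. With shRNA 2, the order was BCAT2 (15.3 ± 0.704), BCKDHB (5.11 ± 0.295), BCKDK (4.15 ± 0.471), DBT (2.59 ± 0.17) and BCAT1 (1.65 ± 0.136), again without overlap, with BCKDHA last. BCAT1 was thus the second in control and the lowest of the 5 tested genes with shRNA 2.

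Ratios within a library show the balance of these transcripts free of library scaling. The ratio of BCAT1 to BCAT2, the cytosolic to the mitochondrial aminotransferase, was 0.776, 0.873, 0.755 and 0.816 in control. It was 0.355, 0.25, 0.225 and 0.205 with shRNA 1, and 0.102, 0.107, 0.12 and 0.105 with shRNA 2. The 3 groups did not overlap, and the ratio was lowest with shRNA 2.

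The ratio of the kinase BCKDK to BCKDHB was 1.41, 1.28, 1.27 and 1.22 in control, 0.515, 0.534, 0.545 and 0.621 with shRNA 1, and 0.76, 0.819, 0.983 and 0.699 with shRNA 2. These groups did not overlap either, and shRNA 2 lay between the others. The ratio of DBT to BCKDHB was 0.324, 0.37, 0.346 and 0.433 in control, 0.754, 0.793, 0.603 and 0.543 with shRNA 1, and 0.446, 0.485, 0.55 and 0.551 with shRNA 2. Both knockdown groups lay above control and overlapped each other. RNA ratios of complex subunits are not ratios of protein or of activity, which were not measured.

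**Figure D2:**
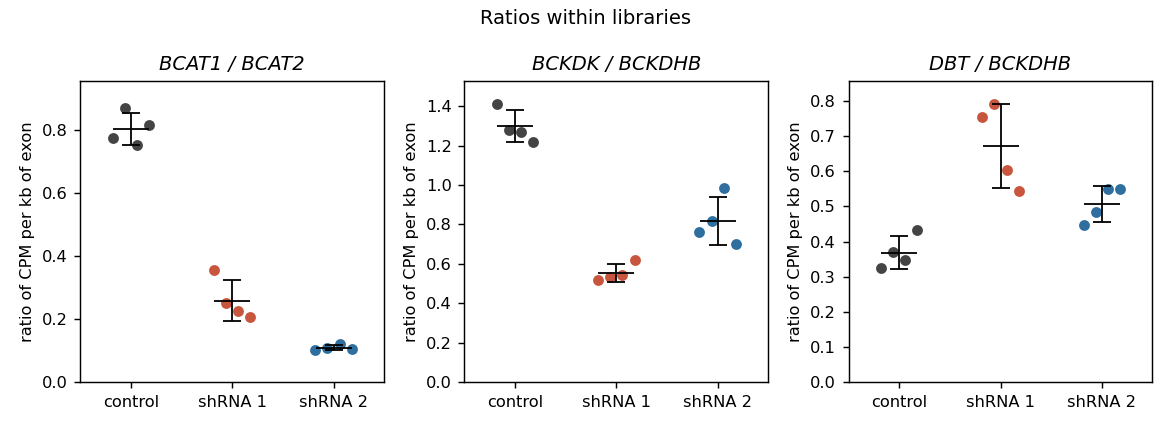
Ratios between genes within each library, from CPM per kilobase of exon (vertical axes, each from 0); points are libraries, horizontal bars group means and whiskers 1 SD over 4 libraries. The mean ratio of BCAT1 to BCAT2 is 0.805 in control, 0.259 with shRNA 1 and 0.108 with shRNA 2, while BCKDK to BCKDHB is lowest with shRNA 1 at 0.554.

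The other 23 genes listed for the pathway, mostly of the steps from the complex to acetyl-CoA and succinyl-CoA, moved in both directions. They include SLC25A44, a mitochondrial carrier of branched-chain amino acids, and OXCT1, an enzyme of ketone bodies. With shRNA 1, 4 rose, 11 fell and 8 did not pass the edgeR test at an adjusted p of 0.05. Over all tested genes 28.6% rose and 28.7% fell in that comparison. With shRNA 2, 4 rose, 10 fell and 9 did not pass, beside 24.7% rising and 25.3% falling over all tested genes. The list's median log2 change was -0.25 with shRNA 1 and -0.28 with shRNA 2, beside medians of 0.02 and 0.00 over all tested genes. Between the shRNAs, 8 were higher and 7 lower with shRNA 2, beside 29.3% and 29.4% of all tested genes. This list and those below were chosen with earlier results of these data known, so their counts are given as a description.

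Of the remaining parts of the complex and its control, DLD, which other dehydrogenase complexes share, fell from 103 ± 8.96 CPM to 73.6 ± 7.8 with shRNA 1 (log2 change -0.48, edgeR adjusted p = 1.53e-05). With shRNA 2 it fell to 88.5 ± 4.2 CPM (log2 change -0.22, edgeR adjusted p = 0.0248). That call was lost without control replicate 2, 3 or 4 or shRNA 2 replicate 2, 3 or 4, with adjusted p from 0.0554 to 0.0984. The phosphatase PPM1K, which opposes BCKDK, fell from 23.9 ± 1.86 CPM to 20.1 ± 1.07 and 19.2 ± 1.16 (log2 changes -0.25 and -0.32, edgeR adjusted p = 0.0393 and 0.0117). Its shRNA 1 call was lost without control replicate 3 or 4 or shRNA 1 replicate 1, 3 or 4 (adjusted p 0.0562 to 0.129), without the filter on low counts (0.0832), in a fit of the 2 groups alone (0.0817), without shRNA 1 replicates 3 and 4 (0.161) and with upper quartile scaling (0.201), and its shRNA 2 call without control replicate 4 (adjusted p 0.0504). Both genes of the switch were thus lower by RNA level, BCKDK by more than PPM1K.

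In leucine breakdown, IVD, the isovaleryl-CoA dehydrogenase, fell from 109 ± 6.89 CPM to 86.0 ± 5.34 with shRNA 1 and 86.5 ± 4.66 with shRNA 2 (log2 change -0.34 with each, edgeR adjusted p = 0.000178 and 0.000302). ACAT1, the mitochondrial thiolase that ends isoleucine breakdown and acts in ketone metabolism, fell from 151 ± 10.3 CPM to 108 ± 12.6 and 72.5 ± 2.29. Its log2 changes were -0.48 (edgeR adjusted p = 1.09e-05) and -1.05 (edgeR adjusted p = 1.15e-10). OXCT1, which activates ketone bodies, fell from 234 ± 28.7 CPM to 121 ± 12.7 and 190 ± 5.32 (log2 changes -0.96 and -0.30, edgeR adjusted p = 8.3e-10 and 0.0032). The 2 subunits of methylcrotonyl-CoA carboxylase, named after their values were seen, differed between the shRNAs in opposite ways. MCCC2 was higher with shRNA 2 than with shRNA 1 (log2 difference 0.77, edgeR adjusted p = 2.23e-10) and MCCC1 lower (-0.70, edgeR adjusted p = 3.03e-08).

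In valine breakdown, ACAD8, the isobutyryl-CoA dehydrogenase, rose from 25.7 ± 2.09 CPM to 33.7 ± 3.5 and 40.2 ± 5.59 (log2 changes 0.39 and 0.65, edgeR adjusted p = 0.00371 and 2.59e-05). Its shRNA 1 call was lost without shRNA 1 replicates 3 and 4 (adjusted p 0.0645). HIBADH, the hydroxyisobutyrate dehydrogenase, was at 39.3 ± 5.53 CPM in control and 32.9 ± 4.75 with shRNA 1 (log2 change -0.26, edgeR adjusted p = 0.0727), and fell to 16.2 ± 2.22 with shRNA 2 (-1.28, edgeR adjusted p = 1.47e-08). The difference between the shRNAs passed the test (log2 difference -1.02, edgeR adjusted p = 2.82e-07).

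Propionyl-CoA, the product shared by valine and isoleucine, is carboxylated by an enzyme of the subunits PCCA and PCCB. PCCB was at 196, 185, 197 and 192 CPM in control, 117, 92.2, 82.7 and 81.6 CPM with shRNA 1, and 92.0, 83.4, 85.1 and 88.7 CPM with shRNA 2. It fell with both (log2 changes -1.05 and -1.14, edgeR adjusted p = 4.95e-10 and 2.31e-10). PCCA was at 13.1, 11.6, 14.5 and 18.3 CPM in control, 7.37, 7.13, 6.13 and 6.05 CPM with shRNA 1, and 32.2, 29.2, 35.4 and 33.6 CPM with shRNA 2. It fell with shRNA 1 (log2 change -1.11, edgeR adjusted p = 3.69e-07) and rose with shRNA 2 (1.17, edgeR adjusted p = 7.69e-08), a log2 difference of 2.28 (edgeR adjusted p = 1.63e-12). MMUT, the mutase that makes succinyl-CoA, rose from 11.4 ± 1.95 CPM to 23.1 ± 0.427 and 20.5 ± 2.1 (log2 changes 1.01 and 0.84, edgeR adjusted p = 2.12e-07 and 4.99e-06).

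HADHA, the alpha subunit of the mitochondrial trifunctional protein, which serves fatty acid oxidation, had the largest change of the list with shRNA 1. It was at 549, 544, 569 and 544 CPM in control, 120, 117, 105 and 116 CPM with shRNA 1, and 484, 397, 421 and 484 CPM with shRNA 2. It fell with both (log2 changes -2.27 and -0.31, edgeR adjusted p = 5.02e-17 and 0.000645) and was higher with shRNA 2 than with shRNA 1 (log2 difference 1.96, edgeR adjusted p = 4.71e-16). Its partner HADHB, with MCEE (methylmalonyl-CoA epimerase) the remaining genes that rose with shRNA 1, had log2 changes of 0.21 and -0.64 (edgeR adjusted p = 0.0102 and 6.22e-08). MCEE had a log2 change of 0.65 with shRNA 1 (edgeR adjusted p = 0.00128), and HSD17B10, a dehydrogenase of isoleucine breakdown, 0.52 with shRNA 2 (edgeR adjusted p = 9.12e-06). HADHB, MCEE and HSD17B10 were named after their values were seen.

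**Figure D3:**
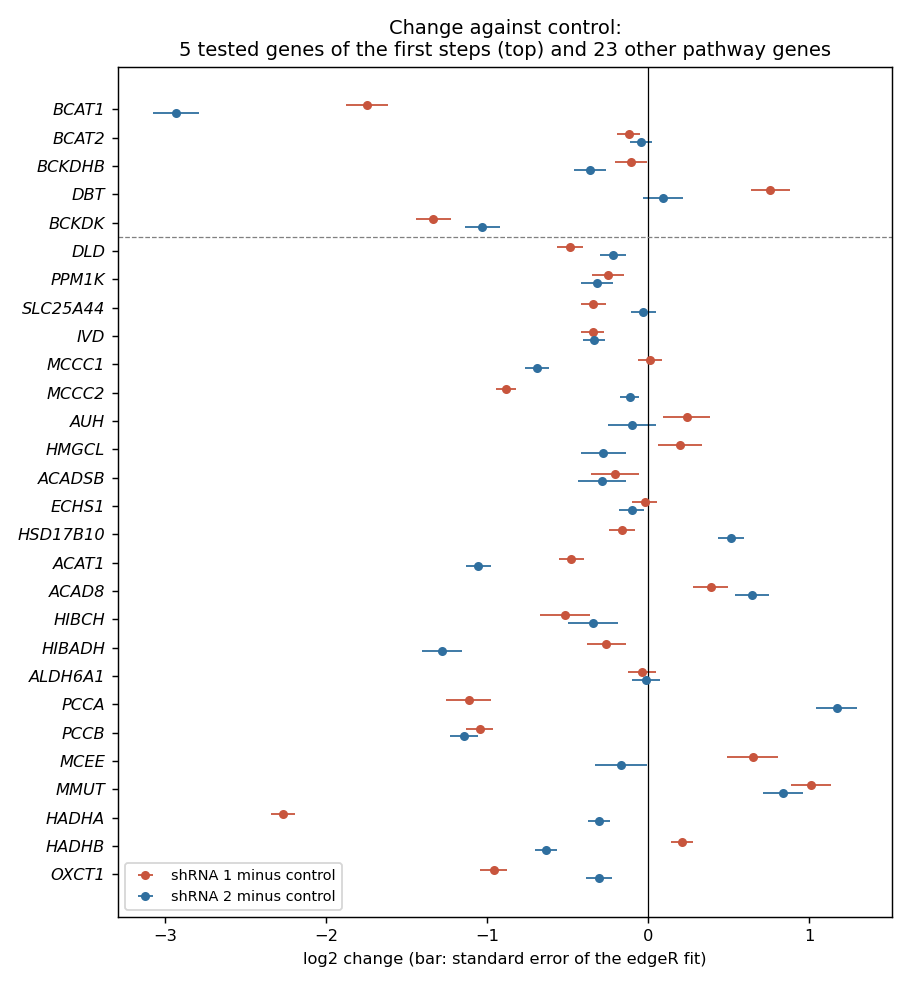
log2 change against control (horizontal axis) with shRNA 1 (red) and shRNA 2 (blue) for the 5 tested genes of the first steps, above the dashed line, and the 23 other genes of the pathway; bars are standard errors of the edgeR fit. BCAT1 with shRNA 2 lies farthest left at -2.93, PCCA and HADHB lie on opposite sides of 0 with the 2 shRNAs, and HADHA with shRNA 1 stands at -2.27.

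Of 5 carriers that bring branched-chain amino acids into the cell, 2 rose, 1 fell and 2 did not pass with shRNA 1, and 1 rose, 2 fell and 2 did not pass with shRNA 2. With so few genes these counts are near the shares over all tested genes (28.6% rising and 28.7% falling with shRNA 1, 24.7% and 25.3% with shRNA 2). SLC7A5, the light chain of the L-type carrier LAT1, fell from 376 ± 26.3 CPM to 220 ± 15.5 and 221 ± 7.77 (log2 change -0.77 with each, edgeR adjusted p = 8.62e-10 and 1.73e-09). SLC3A2, the heavy chain of that carrier, was named after its values were seen. It rose with shRNA 1 (log2 change 0.595, edgeR adjusted p = 4.11e-06) and did not pass with shRNA 2 (0.0073, edgeR adjusted p = 0.953). SLC43A1 was at 153 ± 9.22 CPM in control and 171 ± 10.9 with shRNA 1 (edgeR adjusted p = 0.0532), and fell to 69.0 ± 4.5 with shRNA 2 (log2 change -1.15, edgeR adjusted p = 4.61e-12). SLC43A2 rose from 2.35 ± 1.25 to 9.92 ± 1.47 CPM with shRNA 1 (log2 change 2.11, edgeR adjusted p = 6.38e-07) and was at 1.91 ± 0.348 with shRNA 2. SLC7A8 rose from 1.76 ± 0.48 to 3.68 ± 0.632 CPM with shRNA 2 (log2 change 1.06, edgeR adjusted p = 0.00647).

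The pyruvate and 2-oxoglutarate dehydrogenase complexes are built like the branched-chain complex and share DLD with it. Of their 13 tested genes (PDK4 did not pass the filter), 5 rose, 6 fell and 2 did not pass with shRNA 1, and 3 rose, 6 fell and 4 did not pass with shRNA 2. Over all tested genes 28.6% rose and 28.7% fell with shRNA 1, and 24.7% and 25.3% with shRNA 2. The list's median log2 change was -0.14 and -0.08, beside 0.02 and 0.00 over all tested genes. OGDH, the decarboxylase of the 2-oxoglutarate complex, fell from 154 ± 9.11 CPM to 69.1 ± 5.88 and 84.0 ± 2.63 (log2 changes -1.16 and -0.88, edgeR adjusted p = 2.32e-12 and 4.32e-10). DLAT, the pyruvate complex's counterpart of DBT, was at 111 ± 3.74, 98.6 ± 7.75 and 61.2 ± 2.12 CPM in the 3 groups, and was lower with shRNA 2 than with shRNA 1 (log2 difference -0.69, edgeR adjusted p = 8.22e-09). DBT and DLAT were thus both lower with shRNA 2 than with shRNA 1, but they differed against control. DLAT fell with shRNA 2 (log2 change -0.855, edgeR adjusted p = 4.66e-10), where DBT overlapped control. With shRNA 1 DBT lay above control, while DLAT was called lower (log2 change -0.17, edgeR adjusted p = 0.0373). That DLAT call was lost in several alternatives, among them upper quartile scaling (adjusted p 0.38) and leaving out shRNA 1 replicates 3 and 4 (0.36). PDHX, the binding protein of the pyruvate complex, rose from 28.6 ± 1.46 to 42.4 ± 3.21 CPM with shRNA 1 (log2 change 0.57, edgeR adjusted p = 1.84e-05). With shRNA 2 it was at 33.7 ± 3.72 CPM and called higher (log2 change 0.235, edgeR adjusted p = 0.0427). That call was lost with DESeq2 (adjusted p 0.0512) and without the filter on low counts (0.0561). It was also lost without control replicate 1, 2 or 4 or shRNA 2 replicate 1, 2 or 4 (adjusted p 0.0705 to 0.17).

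The kinases of the pyruvate complex, relatives of BCKDK, were not all lower. PDK1 had a log2 change of -0.14 with shRNA 1 (edgeR adjusted p = 0.375) and fell with shRNA 2 (-0.78, edgeR adjusted p = 5.31e-05). PDK2 had a log2 change of 0.08 with shRNA 1 (edgeR adjusted p = 0.473) and rose with shRNA 2 (0.23, edgeR adjusted p = 0.0369). PDK3 fell from 15.3 ± 1.71 to 11.0 ± 3.33 CPM with shRNA 1 (log2 change -0.48, edgeR adjusted p = 0.0135) and was at 14.5 ± 0.652 with shRNA 2 (edgeR adjusted p = 0.704). Its shRNA 1 call was lost without control replicate 4 (adjusted p 0.059), shRNA 1 replicate 3 (0.0607) or shRNA 1 replicates 3 and 4 (0.267). PDK1 and PDK2 were named after their values were seen. No test of BCKDK against them was made.

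Enzymes that make or use glutamate and 2-oxoglutarate, the partners of the BCAT reaction, were mostly lower with shRNA 1: of 16, 1 rose, 13 fell and 2 did not pass, with a median log2 change of -0.46, beside 28.6% rising, 28.7% falling and a median of 0.02 over all tested genes. With shRNA 2, 0 rose, 8 fell and 8 did not pass, with a median of -0.23, beside 24.7%, 25.3% and 0.00 over all tested genes. Between the shRNAs, 9 of 16 were higher and 2 lower with shRNA 2, beside 29.3% and 29.4%. This list too was chosen with earlier results of these data known, so its counts are a description. GLUL, glutamine synthetase, fell from 1590 ± 97.1 CPM to 341 ± 14.8 and 825 ± 21.4 (log2 changes -2.22 and -0.94, edgeR adjusted p = 1.06e-17 and 1.39e-11). IDH1, the cytosolic isocitrate dehydrogenase that makes 2-oxoglutarate, fell from 37.4 ± 5.72 CPM to 17.6 ± 2.37 and 15.0 ± 1.15 (log2 changes -1.09 and -1.32, edgeR adjusted p = 5.23e-08 and 4.97e-09). GPT, an alanine aminotransferase, was the gene that rose with shRNA 1, from 5.94 ± 0.975 to 11.9 ± 2.05 CPM (log2 change 1.00, edgeR adjusted p = 2.81e-05). GLUD1 and GLUD2 are near-identical copies, so the split of reads between them is uncertain.

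Of the 6 tested dioxygenases that use 2-oxoglutarate to act on DNA or on hypoxia-inducible factors (EGLN3 did not pass the filter), 1 rose, 2 fell and 3 did not pass with shRNA 1, and 1 rose, 1 fell and 4 did not pass with shRNA 2. With 6 genes these counts are not far from the shares over all tested genes (28.6% and 28.7%, then 24.7% and 25.3%). TET2, a DNA demethylase, rose from 40.5 ± 1.38 CPM to 54.7 ± 7.06 and 50.6 ± 1.63 (edgeR adjusted p = 0.000156 and 0.00365). TET1 was at 182 ± 5.86 CPM in control and 187 ± 28.4 with shRNA 1, and fell to 127 ± 7.28 with shRNA 2 (log2 change -0.52, edgeR adjusted p = 1.1e-05). EGLN1, a prolyl hydroxylase, fell from 117 ± 2.99 to 57.5 ± 0.912 CPM with shRNA 1 (log2 change -1.03, edgeR adjusted p = 1.69e-12) and was at 128 ± 5.22 with shRNA 2. HIF1AN was the other dioxygenase called lower with shRNA 1 (log2 change -0.20, edgeR adjusted p = 0.0399).

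Of 6 factors reported elsewhere to act on BCAT1, 2 rose, 2 fell and 2 did not pass with shRNA 1, and 2 rose, 3 fell and 1 did not pass with shRNA 2. Over all tested genes 28.6% rose and 28.7% fell with shRNA 1, close to these counts, and 24.7% and 25.3% with shRNA 2. The RNA-binding protein MSI2 was at 147, 150, 138 and 155 CPM in control, 97.9, 87.4, 82.0 and 80.4 CPM with shRNA 1, and 77.0, 72.7, 73.9 and 74.8 CPM with shRNA 2. It fell with both (log2 changes -0.76 and -0.98, edgeR adjusted p = 1.87e-09 and 5.7e-11) and, as in BCAT1, the shRNA 2 libraries were the lowest (log2 difference -0.22, edgeR adjusted p = 0.00855). The call on that difference was lost without shRNA 1 replicates 1 and 2 (adjusted p 0.137). MYC fell from 697 ± 19.5 CPM to 356 ± 34.0 and 458 ± 22.6 (log2 changes -0.97 and -0.61, edgeR adjusted p = 2.23e-11 and 7.63e-08), and was lower with shRNA 1 than with shRNA 2 (log2 difference 0.36, edgeR adjusted p = 6.19e-05). EZH2, a histone methyltransferase, was at 107 ± 3.0 CPM in control and 108 ± 6.11 with shRNA 1, and rose to 187 ± 14.7 with shRNA 2 (log2 change 0.81, edgeR adjusted p = 9.02e-10). ATF4 rose from 275 ± 19.3 to 356 ± 55.8 CPM with shRNA 1 (edgeR adjusted p = 0.000865) and fell to 193 ± 10.3 with shRNA 2 (edgeR adjusted p = 4.41e-05). Whether any of them acted on BCAT1 in these cells was not tested.

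The genes most like BCAT1 were sought by Pearson r of log2 CPM over the 12 libraries among 10918 genes with a mean of at least 5 CPM. The 12 libraries fall into 3 groups, so r mostly reflects the order and spacing of 3 group levels, and 169 genes had r above 0.95. The 8 highest were P2RY8 (r = 0.9939, rho = 0.9301), STAT5B (0.9931, 0.958), WDR35 (0.9916, 0.9231), MLH3 (0.9912, 0.9231), R3HDM1 (0.9892, 0.951), ADGRA3 (0.9889, 0.9161), MBTD1 (0.9886, 0.9231) and BCL2 (0.9877, 0.9371). Ranked by rho instead, 0 of these 8 were among the 8 highest. Because they were picked for this pattern, their levels have no test.

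P2RY8, a G protein-coupled receptor, was at 538 ± 7.71, 348 ± 50.4 and 266 ± 4.82 CPM in control, shRNA 1 and shRNA 2. STAT5B, a transcription factor downstream of cytokine receptors, was at 270 ± 13.0, 160 ± 12.1 and 106 ± 5.7 CPM. BCL2, an inhibitor of apoptosis, was at 141 ± 4.71, 94.8 ± 11.1 and 65.2 ± 1.98 CPM. In all 8 genes the shRNA 2 mean was lower than the shRNA 1 mean and that lower than control, as in BCAT1, but none was as low relative to control as BCAT1. Of its own partners, BCKDHB had r = 0.8102 (rank 1029), BCKDK 0.7886 (rank 1152), BCAT2 0.3161 (rank 3798) and DBT -0.1682 (rank 6585). Many genes outside the pathway thus had a higher r with BCAT1 than its partners did.

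**Figure D4:**
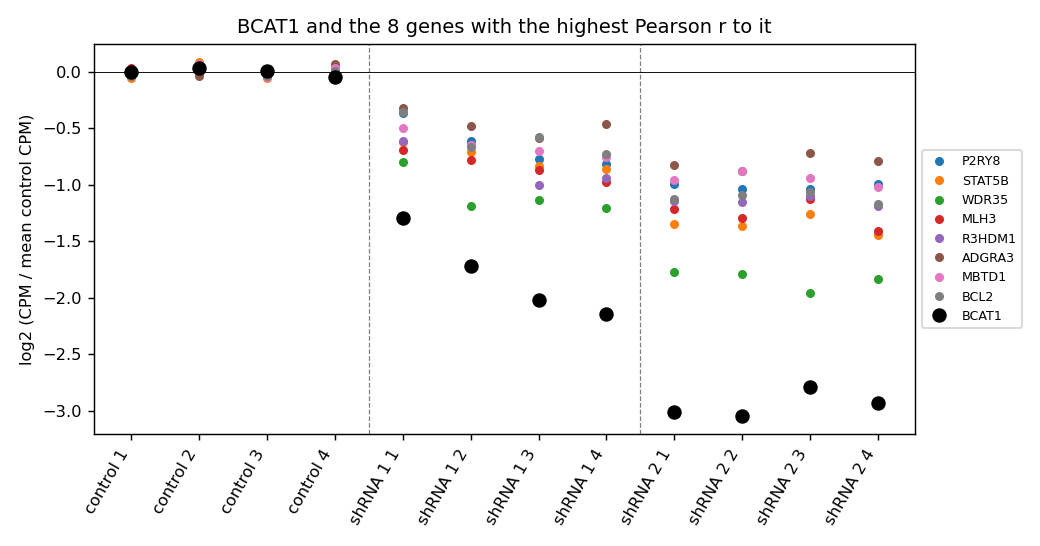
log2 of the CPM in each library over the mean control CPM (vertical axis) for BCAT1 (black) and the 8 genes with the highest Pearson r to it, in the 12 libraries (horizontal axis, dashed lines between groups). All 9 genes step down from control to shRNA 1 to shRNA 2, and BCAT1 is the lowest of them in every knockdown library.

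The nearest tested genes on each side of the 6 genes, apart from genes that overlap them, moved in both directions. ETNK1, an ethanolamine kinase 2119357 bases from BCAT1 on its lower-coordinate side, fell from 73.9 ± 4.07 CPM to 47.0 ± 8.37 and 32.1 ± 3.19 (log2 changes -0.65 and -1.20, edgeR adjusted p = 9.17e-06 and 1.99e-09). IRAG2, 54883 bases to the other side, rose with shRNA 1 (log2 change 0.32, edgeR adjusted p = 0.0106) and fell with shRNA 2 (-0.45, edgeR adjusted p = 0.00118). Beside BCAT2, FUT1 fell with shRNA 1 from 7.4 ± 1.11 to 0.769 ± 0.291 CPM (log2 change -3.28, edgeR adjusted p = 9.14e-11). HSD17B14, 1988 bases from BCAT2, rose from 6.33 ± 0.692 to 16.3 ± 5.13 CPM (log2 change 1.36, edgeR adjusted p = 4.91e-06). Neither passed the test with shRNA 2 (log2 changes 0.45 and 0.13, edgeR adjusted p = 0.0582 and 0.634).

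Beside BCKDK, the histone acetyltransferase KAT8, 2963 bases away, rose from 18.7 ± 1.97 CPM to 29.8 ± 3.63 and 25.4 ± 1.22 (log2 changes 0.67 and 0.44, edgeR adjusted p = 1.34e-05 and 0.00185), the opposite direction to BCKDK. VKORC1 on the other side was at 1.84 ± 0.635, 1.42 ± 0.787 and 2.67 ± 0.47 CPM and did not pass against control. Beside BCKDHB, the mitotic kinase TTK rose with both shRNAs (log2 changes 0.33 and 0.37, edgeR adjusted p = 0.00162 and 0.000598). ENSG00000233967 on its other side had a mean of at most 1.38 CPM in any group. It was called lower with shRNA 2 (log2 change -3.42, edgeR adjusted p = 0.000217), from counts of 10, 5, 13 and 22 in control to 1, 3, 0 and 1. Beside DBT, TRMT13 was at 15.8 ± 1.37, 19.9 ± 1.03 and 14.0 ± 1.93 CPM. Its call with shRNA 1 (log2 change 0.34, edgeR adjusted p = 0.018) was lost without control replicate 4 (adjusted p 0.0584) or shRNA 1 replicates 3 and 4 (0.0589).

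RTCA-AS1, 1694 bases from DBT, was at 0.408 ± 0.193 CPM in control and rose to 2.22 ± 0.916 with shRNA 1 (log2 change 2.44, edgeR adjusted p = 0.000828). With shRNA 2 it had counts of 0, 2, 0 and 4, and as an antisense gene counted without a stated strand setting its level is uncertain. Beside BCKDHA, TMEM91, 13377 bases away, and B3GNT8, 354 bases away, rose with shRNA 1 (log2 changes 0.68 and 0.81, edgeR adjusted p = 0.00172 and 0.000594). Neither passed with shRNA 2 (edgeR adjusted p = 0.419 and 0.985). EXOSC5, a tested gene on the opposite strand, overlaps BCKDHA and shares 20 exon bases with it. Its level was 39.4 ± 6.86 CPM in control, 34.7 ± 4.04 with shRNA 1 and 25.8 ± 2.62 with shRNA 2.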

How the data were processed

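The authors deposited a table of raw read counts, 1 row per Ensembl gene. Their steps, per the submitters' processing notes, involved STAR 2.7.3a, cutadapt 2.6, DESeq2 and build hg19, with no role stated for each. Counting tool, annotation and strand setting: not given in the sources used here. Per the labels' protocols, libraries were made with the NEBNext Ultra kit from Trizol RNA.

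Symbols came from a separate list of gene names by Ensembl ID, and from GENCODE 29 where that list had none. Positions came from GENCODE 29 on GRCh38. Of 48162 IDs, 45342 had a symbol. Counts of all 12 libraries were fitted together, with a term per group, with edgeR 4.0.16 under R 4.3.3 (quasi-likelihood F test, trimmed-mean scaling, filterByExpr, robust). Adjustment was by Benjamini-Hochberg over 15834 genes, with a threshold of 0.05, after tests on simulated data. No pair of replicates agreed within sampling noise, and those of shRNA 1 differed most. The 6 genes and the lists were chosen with earlier results of these data known. Named genes were those of the first steps, and in each list the largest called change per direction and comparison. To these were added pathway genes and carriers called alike with both shRNAs, the 8 genes most like BCAT1, and the nearest neighbours. The 10 libraries of 3' ends were not used here, because their sites carry no gene names and no annotation of their build was used. Alternatives were DESeq2 1.42.0, other scalings, no filter, fits of 2 groups, a replicate block and leaving out each library or, added after seeing the data, pairs of shRNA 1 libraries.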

Additional observations from a re-analysis of the deposited data

Results flagged for a closer look

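Of 168 groups of 4 libraries tested over the 56 named genes, 8 had a highest or lowest library far from the other 3 (Dixon's criterion, which chance meets in about 1 group in 20). None was a group of BCAT1, BCAT2, BCKDHA, BCKDHB, DBT or BCKDK. Among pathway genes and carriers, DLD was at 94.8 CPM in shRNA 2 replicate 1, with the others at 85.7 to 86.8. OXCT1 was at 182 CPM in shRNA 2 replicate 2, beside 192 to 193. SLC43A1 was at 167 CPM in control replicate 3, beside 147 to 150. The factor ATF4 was at 208 CPM in shRNA 2 replicate 3, beside 187 to 189. WDR35, which resembled BCAT1, was at 68.3 CPM in shRNA 1 replicate 1, beside 51.7 to 54.1, and BCAT1 was also highest of its group in that library. Of the neighbours, IRAG2 was at 24.4 CPM in shRNA 1 replicate 3, beside 26.7 to 27.0, and FUT1 at 7.82 in shRNA 2 replicate 2, where the others were at 10.9. HSD17B14 was at 8.63 CPM in shRNA 1 replicate 1, beside 18.0 to 19.6.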

How the results depend on the processing

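The checks of single genes covered the 56 genes named by the rules above. Among them, no direction of a named change was reversed under DESeq2, other scalings, no filter on low counts, fits of 2 groups or a replicate block. The same held when 1 library or a pair of shRNA 1 libraries was left out. HADHB, MCEE, HSD17B10, MCCC1, MCCC2, PDK1, PDK2, HIF1AN and SLC3A2 were named outside those rules, and the stability of their calls is not given here. With upper quartile scaling, which moved the median log2 change of all genes with shRNA 1 from 0.02 to 0.12, the log2 change with shRNA 1 was -0.0223 for BCAT2 (-0.12 otherwise) and -0.0069 for BCKDHB (-0.11 otherwise). Leaving out 1 library at a time, the BCAT1 log2 change ran from -1.94 to -1.64 with shRNA 1, from -2.99 to -2.90 with shRNA 2 and from -1.29 to -0.99 between them. Without shRNA 1 replicates 1 and 2, the BCAT1 log2 change with shRNA 1 was -2.0751 and the difference between the shRNAs -0.857, and those of DBT were 0.5499 and -0.46. Without replicates 3 and 4 those of BCAT1 were -1.4913 and -1.4372. Over the fits without 1 library, 10 to 12 of the 23 pathway genes fell with shRNA 1 and 8 to 11 with shRNA 2. In each of these fits 4 rose with each shRNA. Over all tested genes, 4315 to 4636 fell and 4297 to 4589 rose with shRNA 1. With shRNA 2, 3675 to 4239 fell and 3492 to 4195 rose. Among other named genes, 76 combinations of a gene, a comparison and an alternative lost the call and 2382 did not.

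Same-numbered libraries of different groups did not deviate together (correlations from -0.0369 to 0.0893), so the numbers were not taken to pair them. With a replicate block the BCAT1 log2 changes were -1.77 and -2.93. In that fit 10 of the 23 pathway genes fell and 4 rose with each shRNA. Of all 15834 tested genes, 4615 fell and 4508 rose with shRNA 1, and 4028 fell and 3977 rose with shRNA 2. The calls of PPM1K with shRNA 1 and PDHX with shRNA 2 were lost in it (edgeR adjusted p 0.0526 and 0.0532). Tests on libraries of 3' ends, planned for the case that an annotation of their build could be used, were not run. BCKDHA had at most 22 counts in a library, which limits its precision whatever set those counts.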
